A study of Mus musculus with 17 samples.

Results

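The interferon response genes described here are a set of 49 mouse genes that cells switch on when interferons reach them or that carry the interferon signal. A gene entered when a row of the array data (a transcript cluster, the probes of 1 transcript read as 1 value) carried its symbol and no other, and a gene with several rows was to be taken at the row with the highest mean. By this rule 39 of the 49 genes were measured, out of 14807 genes measured in the whole series, each by a single transcript cluster. Ifit3, Oas3, Eif2ak2, Igtp and Irgm2 shared their row with another symbol, and Nlrc5, Usp18, Isg15, Xaf1 and Ifi44 had no row, so these 10 genes were not analysed here.

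Type I interferons are secreted proteins that cells make when they sense foreign or misplaced nucleic acid, and interferon gamma is made mainly by T cells and natural killer cells. Both bind receptors that use Janus kinases to activate Stat transcription factors. Stat2 and Irf9 act in a complex that binds a DNA element called the interferon-stimulated response element (ISRE), and interferon gamma acts through the gamma-activated site (GAS). Genes with these elements include those for antiviral proteins, guanylate-binding proteins and the machinery that loads peptides onto class I molecules. In lung the genes are known from virus infection, where epithelial, endothelial and immune cells all express them.

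The series measured RNA of cells cut with a laser from stained lung cryosections, on 17 Affymetrix mouse exon arrays with 1 array per sample. SPC/c-Raf mice carry a c-Raf transgene that the surfactant protein C (SPC) promoter drives in alveolar epithelium, and they develop lung tumours. The 4 kinds of tissue taken were adenocarcinoma of SPC/c-Raf mice (4 arrays), dysplasia of SPC/c-Raf mice (4 arrays), microscopically unaltered lung of SPC/c-Raf mice (4 arrays) and alveolar cells of healthy non-transgenic wild type mice (5 arrays). Values are the authors' log2 RMA values, so differences between groups are log2 fold changes.

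The adenocarcinoma mice were 11.5 to 14 months old, and 1 of the 4 was labelled female. Dysplasia and unaltered tissue came from the same males of 5 to 6 months, and equal replicate numbers are equal animals. Non-transgenic mice were 7 to 11 months old, with 3 of 5 labelled female. Age overlapped only between dysplasia and unaltered tissue, so in every other comparison age and tissue cannot be fully told apart. Replicate 2 of dysplasia and of unaltered tissue and replicate 4 of adenocarcinoma carry the names of 2 animals each. No treatment was given in the labels.

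Median values of the arrays lay between 6.67 and 6.85. They were 6.71 to 6.80 in adenocarcinomas, 6.81 to 6.85 in dysplasias, 6.67 to 6.77 in unaltered tissue and 6.81 to 6.85 in non-transgenic lung. Unaltered arrays thus lay below all dysplasia and non-transgenic arrays. Non-transgenic arrays 4 and 5 correlated with arrays 1 to 3 at 0.975 to 0.980 (Spearman), below the correlations inside either set (0.989 or more), and differences from non-transgenic lung that depend on these sets are also given without each of them. On 4 of the 17 arrays the labelled sex was opposite to what 2 Y-linked genes showed. These genes were low only on non-transgenic arrays 4 and 5, at 3.36 and 3.09 for Eif2s3y and 4.20 and 4.25 for Kdm5d. All other arrays had 8.41 or more and 7.09 or more. Non-transgenic arrays 4 and 5 therefore also differed from arrays 1 to 3 in sex by these genes. Alveolar type II cell markers were high in all tissues, with means over 8 markers of 13.14 to 13.16 in adenocarcinomas, 12.93 to 13.01 in dysplasias, 12.56 to 12.62 in unaltered tissue and 12.30 to 12.49 in non-transgenic lung. The number of arrays limits the precision of every value below.

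Promoter sequences of 8 members, in 7 stretches, are shown because these genes differ in which interferon elements they hold, from ISRE matches through a GAS match to neither, and each has its values described below. They come from RefSeq, build GRCm38.p6, and each runs 5′ to 3′ on the gene's own strand over the 250 bases before its start. Ifit1 (chr19:34640639-34640888, plus strand), Rsad2 (chr12:26456453-26456702, minus strand), Bst2 (chr8:71537473-71537722, minus strand), Gbp2 (chr3:142620413-142620662, plus strand) and the first of the 2 RefSeq promoters of Gbp3 (chr3:142559794-142560043, plus strand) are printed with matches to the ISRE letters in capitals, searched as TTTC, 2 bases of any kind and TTTC, or GAAA, 2 bases and GAAA for the other strand. Irf1 (chr11:53769764-53770013, plus strand, the first of 2 promoters) is printed with its match to the GAS letters TTCNNNGAA in capitals. Psmb9 and Tap1 start back to back, and the 225 bases between their starts (chr17:34187331-34187555, plus strand) held no match to either motif.
Ifit1: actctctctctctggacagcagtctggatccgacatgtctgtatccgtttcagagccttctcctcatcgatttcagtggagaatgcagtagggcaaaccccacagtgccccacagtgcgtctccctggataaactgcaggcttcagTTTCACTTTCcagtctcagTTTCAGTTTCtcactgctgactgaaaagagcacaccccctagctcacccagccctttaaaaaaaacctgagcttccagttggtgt
Rsad2: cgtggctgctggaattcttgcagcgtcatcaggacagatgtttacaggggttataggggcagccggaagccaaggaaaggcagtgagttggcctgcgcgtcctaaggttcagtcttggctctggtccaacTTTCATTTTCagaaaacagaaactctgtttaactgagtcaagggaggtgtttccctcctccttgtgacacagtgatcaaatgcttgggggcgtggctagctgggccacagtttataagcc
Bst2: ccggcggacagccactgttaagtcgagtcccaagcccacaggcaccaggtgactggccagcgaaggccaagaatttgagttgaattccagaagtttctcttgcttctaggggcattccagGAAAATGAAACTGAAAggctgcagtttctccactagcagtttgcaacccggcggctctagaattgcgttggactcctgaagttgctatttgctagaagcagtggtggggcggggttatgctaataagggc
Gbp2: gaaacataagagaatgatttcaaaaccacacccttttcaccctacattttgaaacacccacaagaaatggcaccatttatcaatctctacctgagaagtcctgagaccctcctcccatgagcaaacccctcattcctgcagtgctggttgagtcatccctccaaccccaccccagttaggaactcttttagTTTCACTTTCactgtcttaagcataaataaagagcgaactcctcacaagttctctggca
Gbp3: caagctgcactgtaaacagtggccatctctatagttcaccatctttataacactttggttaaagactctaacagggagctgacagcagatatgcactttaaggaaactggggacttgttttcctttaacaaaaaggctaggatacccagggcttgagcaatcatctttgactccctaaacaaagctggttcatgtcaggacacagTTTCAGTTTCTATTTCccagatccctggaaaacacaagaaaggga
Irf1: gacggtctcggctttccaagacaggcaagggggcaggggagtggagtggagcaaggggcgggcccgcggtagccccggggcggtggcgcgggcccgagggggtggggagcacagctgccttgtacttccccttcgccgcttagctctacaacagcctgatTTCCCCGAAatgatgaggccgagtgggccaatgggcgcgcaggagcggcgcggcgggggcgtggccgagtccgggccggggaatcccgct
Psmb9 and Tap1: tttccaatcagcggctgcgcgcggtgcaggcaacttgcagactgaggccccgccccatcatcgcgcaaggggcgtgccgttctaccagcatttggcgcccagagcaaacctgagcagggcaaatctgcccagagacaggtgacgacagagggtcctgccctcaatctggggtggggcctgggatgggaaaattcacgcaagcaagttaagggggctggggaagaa

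Of the 39 members, 30 had a promoter in the table. The ISRE letters occurred in 9 of these 30 genes (30.0%) and in 3.46% of all 27025 genes with a promoter. The 9 were Ifit1, Rsad2, Bst2, Gbp2, Gbp3, Irgm1, Stat2, Socs1 and B2m. In Ifit1 the matches began at positions -104 and -85 from the start, and those of Gbp3 and Bst2 were pairs that overlap each other. The GAS letters occurred in Irf1, Irf8, Ifit2, Samhd1, Bst2 and Psmb8, 6 of 30 genes (20%), against 8.13% of all genes, and in Bst2 they overlap the first ISRE match. A match describes letters in this window only.

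Across the 4 tissues, 35 of the 39 members had their highest group mean in non-transgenic lung, against 33.8% of all transcript clusters with 1 symbol. In 18 of the 39 members (46.2%) the group means ran upward in the order adenocarcinoma, dysplasia, unaltered tissue and non-transgenic lung, against 14.5% of those clusters. The antiviral effectors, with 11 of 14, made up most of these 18. The mean level over all 39 members was 7.99 to 8.04 on adenocarcinoma arrays, 8.07 to 8.21 on dysplasia arrays, 8.19 to 8.30 on unaltered arrays and 8.45 to 8.76 on non-transgenic arrays. The dysplasia and unaltered ranges met between 8.19 and 8.21, and the other neighbouring ranges did not overlap.

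**Figure D1:**
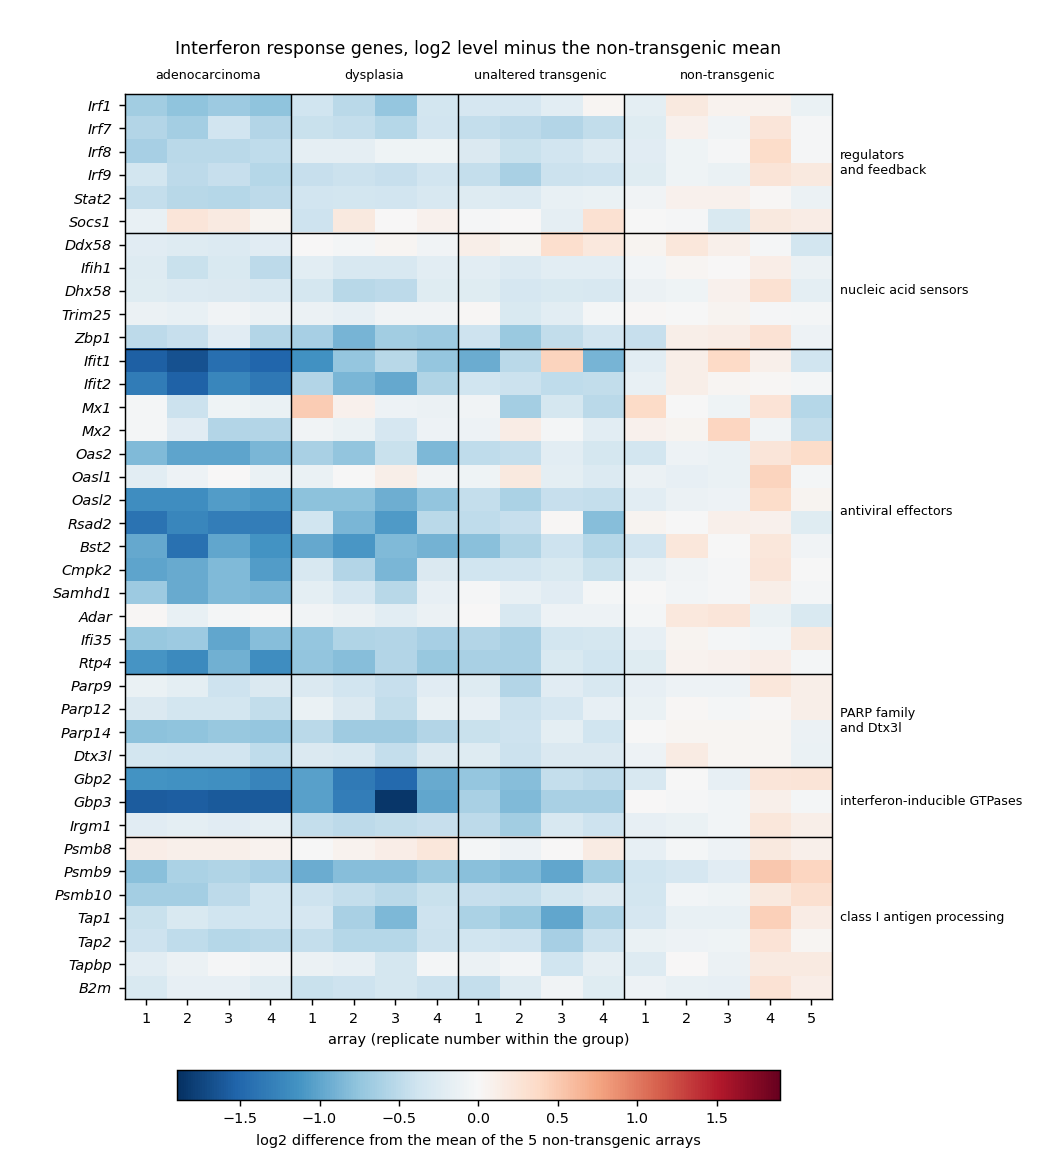
Heat map of the 39 members (rows, grouped by role) on the 17 arrays (columns, by replicate number), coloured by the log2 value minus the mean of the 5 non-transgenic arrays. Ifit1, Ifit2, Rsad2, Gbp2 and Gbp3 are dark blue in the 4 adenocarcinomas, Gbp3 is also dark on dysplasia array 3, and Psmb8, Socs1, Trim25 and Adar are pale.

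Tests came from 1 limma fit of all arrays and all 23238 transcript clusters, and a member passed where its Benjamini-Hochberg adjusted p was under 0.05. Against non-transgenic lung, 26 of 39 members were lower in adenocarcinoma and 0 higher, where 16.4% of all transcript clusters were lower and 13.6% higher. In dysplasia 29 were lower and 0 higher, against backgrounds of 9.86% and 7.62%. In unaltered tissue 24 were lower and 0 higher, against backgrounds of 11.8% and 2.47%. Median log2 differences over the members were -0.48 in adenocarcinoma, -0.45 in dysplasia and -0.36 in unaltered tissue, where the medians of all transcript clusters were 0.01, -0.01 and -0.08. At an unadjusted p under 0.05, 32, 29 and 28 members differed in either direction in these 3 comparisons, against 38.8%, 27.6% and 29.4% of all transcript clusters. The comparisons share their 5 non-transgenic arrays.

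All adenocarcinoma arrays lay below all non-transgenic arrays in 27 members and above in 0, against backgrounds of 15.2% and 12.7% of all transcript clusters. For dysplasia these counts were 29 and 0, against 10.3% and 7.56%, and for unaltered tissue 22 and 0, against 11.9% and 2.86%.

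With age as a covariate 23 members passed in adenocarcinoma, 20 in dysplasia and 1, Irf7, in unaltered tissue. The calls of all transcript clusters fell with them, to 4308 in adenocarcinoma, 2394 in dysplasia and 180 in unaltered tissue, against 6980, 4062 and 3317 without the age term. With the labelled sex as a covariate the count for unaltered tissue was 14. With sex by the Y-linked genes as a covariate it was 16. That term marked only non-transgenic arrays 4 and 5, so sex cannot be told apart there from other traits of these arrays. The members' median was -0.29 with this term and -0.29 without these arrays. Without unaltered replicate 2 the count was 15. All calls with the labelled sex, with sex by the Y-linked genes and without unaltered replicate 2 were 1912, 3643 and 1871 transcript clusters. With quantile normalization the member count was 13 and the members' median was -0.23. The calls of all transcript clusters then split into 971 higher and 822 lower, against 574 and 2743 in the fit above. Fewer cells of a type and less RNA per cell cannot be told apart in such tissue pieces.

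Markers of other cells differed as well, in both directions. All 10 endothelial markers were lower in adenocarcinoma and in dysplasia than in non-transgenic lung, and 4 were lower in unaltered tissue. Their mean level was 9.04 to 9.12 on adenocarcinoma arrays, 9.83 to 10.65 on dysplasia arrays, 10.71 to 11.07 on unaltered arrays and 11.28 to 11.39 on non-transgenic arrays. Of 12 T and NK cell markers, 11 were lower in adenocarcinoma, 6 in dysplasia and 7 in unaltered tissue, where 1 was higher. Their mean level was 6.12 to 6.34, 6.50 to 6.69 and 6.55 to 6.67 in adenocarcinoma, dysplasia and unaltered tissue, against 6.91 to 7.29 in non-transgenic lung. B cell markers were lower for 4, 2 and 2 of 5, neutrophil markers for 3, 1 and 0 of 4, and alveolar type II markers were higher for 7, 7 and 5 of 8. In the same order 5, 2 and 2 of 8 macrophage markers were higher and 2, 4 and 1 lower. For 6 fibroblast markers these counts were 2, 0 and 1 higher and 3, 2 and 1 lower. For 5 alveolar type I markers they were 1, 1 and 0 higher and 3, 2 and 0 lower. For 6 dendritic cell markers they were 0, 1 and 0 higher and 3, 1 and 2 lower. The lowest deposited value of any transcript cluster was 1.13, so no marker could be at 0 and the values cannot show whether a cell type was absent. Neutrophil marker means on adenocarcinoma arrays, at 4.91 to 5.28, lay near the lower quartile of the arrays, which was 4.97 to 5.11. The part of these shifts in the interferon results was not tested.

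**Figure D2:**
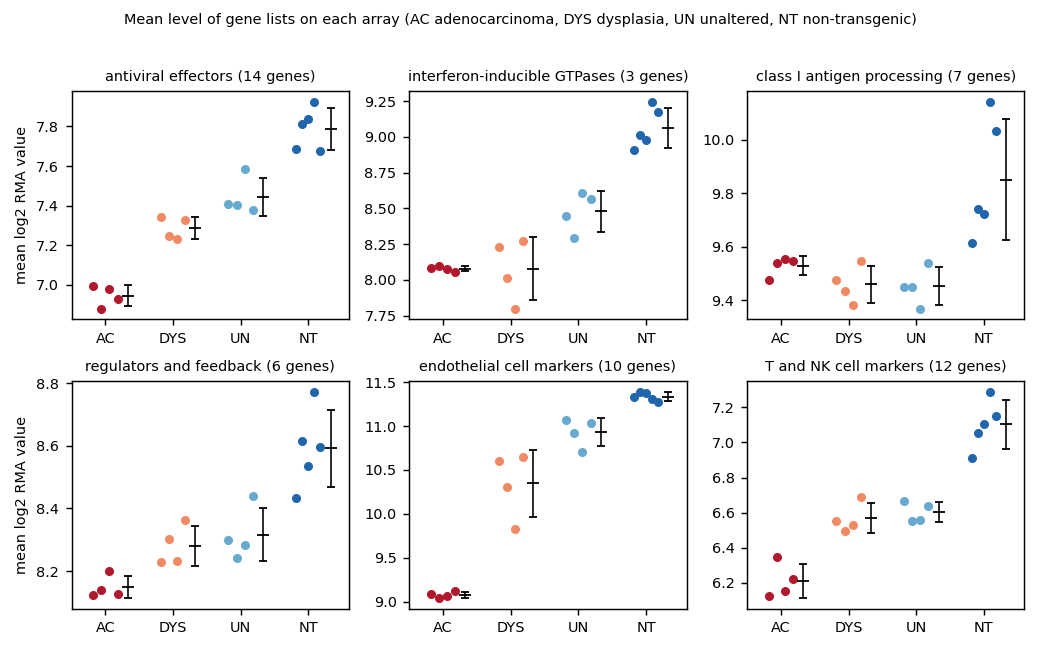
Mean log2 RMA value of 4 member lists, 10 endothelial markers and 12 T and NK cell markers on each array, by group, with the group mean and SD beside the points. Antiviral effectors and endothelial markers are lowest on the adenocarcinoma arrays, where class I genes lie at 9.48 to 9.56, close to the 9.38 to 9.54 of dysplasia and the 9.37 to 9.54 of unaltered tissue.

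Antiviral effectors is the name used here for a list of proteins with antiviral roles, some of which act on nucleotides or RNA. Of 14 measured, 10 were lower in adenocarcinoma, 10 in dysplasia and 6 in unaltered tissue than in non-transgenic lung, with medians of -0.95, -0.64 and -0.41. Ifit1, which binds foreign RNA caps, measured 6.11, 6.00, 6.23 and 6.15 in adenocarcinomas and 6.51, 6.93, 7.13 and 6.93 in dysplasias. In unaltered tissue Ifit1 measured 6.72, 7.14, 8.08 and 6.78, against 7.46, 7.77, 8.03, 7.75 and 7.28 in non-transgenic lung. The adenocarcinomas lay below all other arrays, whereas unaltered replicate 3 lay above every non-transgenic array. Against non-transgenic lung Ifit1 differed by -1.54 ± 0.23 (SE) in adenocarcinoma, which is 0.345 times the level (limma adjusted p = 5.66e-05). In dysplasia it differed by -0.78 ± 0.23 (limma adjusted p = 0.0238), and the adjusted p reached up to 0.0736 without dysplasia replicate 1 or 3 or without non-transgenic replicate 2 or 3. In unaltered tissue the difference of -0.48 ± 0.23 did not pass (limma adjusted p = 0.174).

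Ifit2, a relative of Ifit1 with antiviral activity of its own, measured 7.12, 6.91, 7.21 and 7.10 in adenocarcinomas and 7.89, 7.59, 7.48 and 7.88 in dysplasias. In unaltered tissue Ifit2 measured 8.08, 8.05, 7.97 and 7.98, against 8.31, 8.56, 8.49, 8.48 and 8.42 in non-transgenic lung. No array of any group entered the range of another group. Against non-transgenic lung its differences were -1.37 ± 0.09 in adenocarcinoma, -0.74 ± 0.09 in dysplasia and -0.43 ± 0.09 in unaltered tissue (limma adjusted p = 9.88e-09, 3.27e-05 and 0.00693).

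Rsad2, known as viperin, makes a chain-terminating nucleotide that stops viral polymerases, and Cmpk2 beside it in the genome supplies nucleotides. Rsad2 measured 6.25, 6.42, 6.34 and 6.35 in adenocarcinomas and 7.28, 6.79, 6.58 and 7.14 in dysplasias. In unaltered tissue Rsad2 measured 7.18, 7.22, 7.68 and 6.85, against 7.71, 7.65, 7.76, 7.74 and 7.43 in non-transgenic lung. Every adenocarcinoma lay below every other array, and dysplasia and unaltered tissue overlapped. Rsad2 differed from non-transgenic lung by -1.32 ± 0.17 in adenocarcinoma and -0.71 ± 0.17 in dysplasia (limma adjusted p = 1.6e-05 and 0.00781), and in unaltered tissue the value was -0.43 ± 0.17 (limma adjusted p = 0.109). Cmpk2 measured 6.82, 6.86, 6.98 and 6.76 in adenocarcinomas and 7.51, 7.26, 6.95 and 7.54 in dysplasias. In unaltered tissue Cmpk2 measured 7.44, 7.46, 7.53 and 7.40, against 7.68, 7.75, 7.80, 8.05 and 7.81 in non-transgenic lung. Dysplasia replicate 3 fell within the adenocarcinoma range for this gene. Its differences from non-transgenic lung were -0.97 ± 0.11 in adenocarcinoma and -0.50 ± 0.11 in dysplasia (limma adjusted p = 5.77e-06 and 0.00527).

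Bst2, or tetherin, holds budding virus at the cell surface. It measured 8.56, 8.11, 8.54 and 8.39 in adenocarcinomas and 8.55, 8.42, 8.69 and 8.63 in dysplasias. In unaltered tissue Bst2 measured 8.73, 8.95, 9.14 and 8.99, against 9.17, 9.75, 9.52, 9.74 and 9.46 in non-transgenic lung. Adenocarcinoma and dysplasia overlapped, and both lay below unaltered tissue, which lay below non-transgenic lung. Against non-transgenic lung the differences were -1.13 ± 0.13, -0.96 ± 0.13 and -0.58 ± 0.13 for adenocarcinoma, dysplasia and unaltered tissue (limma adjusted p = 3.17e-06, 6.28e-05 and 0.00798).

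Oasl2, an oligoadenylate synthetase family member, measured 7.57, 7.57, 7.70 and 7.65 in adenocarcinomas and 7.98, 7.97, 7.83 and 8.01 in dysplasias. In unaltered tissue Oasl2 measured 8.31, 8.16, 8.32 and 8.30, against 8.55, 8.65, 8.66, 9.11 and 8.81 in non-transgenic lung. The 4 groups did not overlap for this gene. Its differences from non-transgenic lung were -1.13 ± 0.09, -0.81 ± 0.09 and -0.49 ± 0.09 for adenocarcinoma, dysplasia and unaltered tissue (limma adjusted p = 1.09e-07, 2.02e-05 and 0.00449). Rtp4, a receptor transporter protein with antiviral activity, measured 7.89, 7.80, 8.09 and 7.82 in adenocarcinomas and 8.25, 8.20, 8.44 and 8.29 in dysplasias. In unaltered tissue Rtp4 measured 8.39, 8.39, 8.72 and 8.63, against 8.77, 9.07, 9.09, 9.13 and 8.96 in non-transgenic lung. Dysplasia and unaltered tissue overlapped between 8.39 and 8.44 and the other groups stood clear of each other. Rtp4 differed from non-transgenic lung by -1.11 ± 0.09 in adenocarcinoma, -0.71 ± 0.09 in dysplasia and -0.47 ± 0.09 in unaltered tissue (limma adjusted p = 1.31e-07, 6.19e-05 and 0.00501).

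Samhd1, which breaks down the nucleotides that viruses copy their DNA from, measured 9.82, 9.56, 9.67 and 9.64 in adenocarcinomas and 10.32, 10.19, 9.98 and 10.36 in dysplasias. In unaltered tissue Samhd1 measured 10.49, 10.37, 10.29 and 10.48, against 10.51, 10.46, 10.49, 10.63 and 10.47 in non-transgenic lung. Unaltered and non-transgenic arrays overlapped, and the adenocarcinomas lay below all of them. It differed from non-transgenic lung by -0.84 ± 0.08 in adenocarcinoma (limma adjusted p = 4.63e-07) and by -0.30 ± 0.08 in dysplasia (limma adjusted p = 0.0147, and 0.0549 without dysplasia replicate 3). Oas2 and Ifi35 were also lower in adenocarcinoma and dysplasia, at -0.92 ± 0.13 and -0.80 ± 0.09 in adenocarcinoma.

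Of the 14 effectors, Mx1, Mx2, Oasl1 and Adar passed against non-transgenic lung in no tissue, with values of -0.39 to 0.09 over the 3 comparisons. The means of Mx1 and Mx2 lay below the lower quartile of the arrays, which was 4.97 to 5.11. Adar, which edits double-stranded RNA, had values of -0.04 in adenocarcinoma, -0.12 in dysplasia and -0.12 in unaltered tissue.

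**Figure D3:**
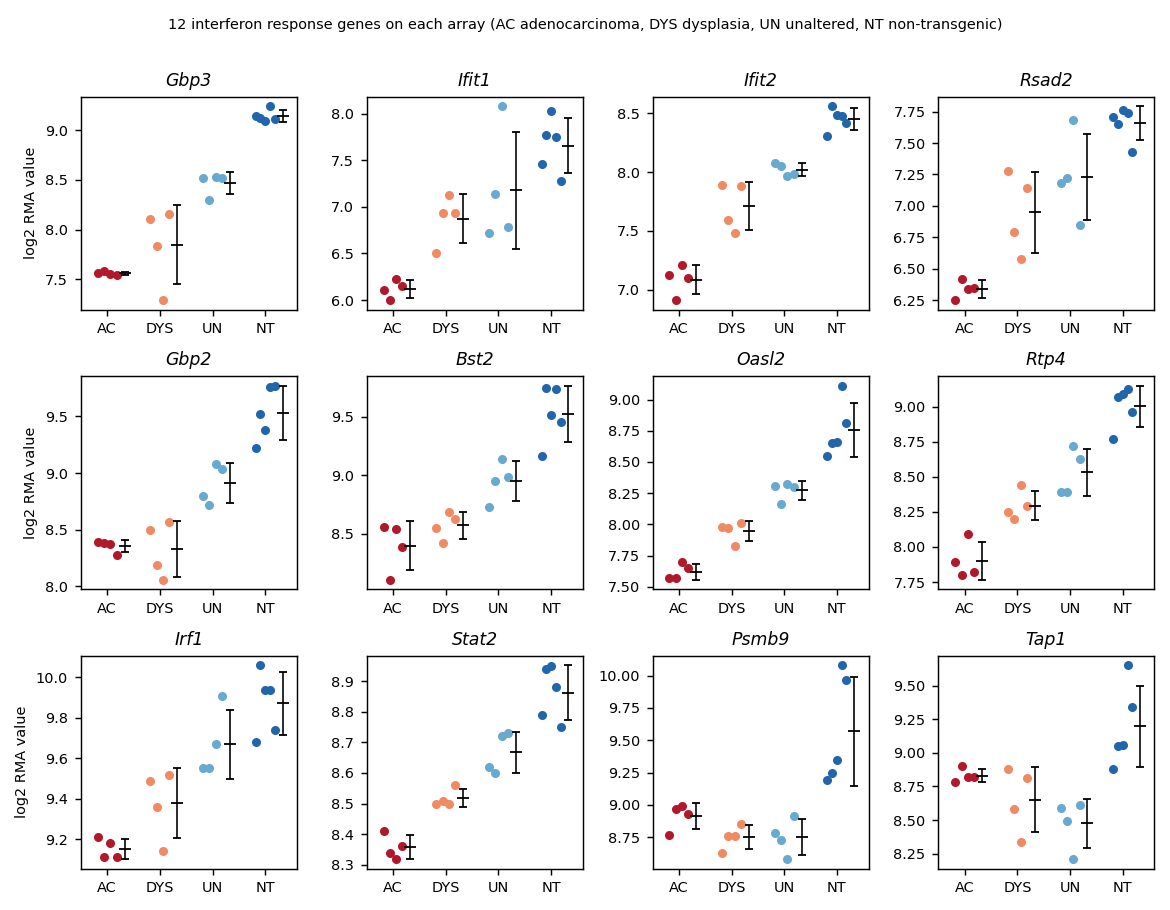
Log2 RMA values of 12 members on each array by group (points, in order of replicate number), with the group mean and SD beside them and a separate y axis for each gene. For Ifit2, Oasl2 and Stat2 the 4 groups do not overlap, while for Psmb9 and Tap1 non-transgenic replicates 4 and 5 are highest and the Tap1 values of adenocarcinoma lie above those of unaltered tissue.

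The interferon-inducible GTPases are large proteins that attack the membranes around intracellular microbes. Gbp3 and Gbp2, guanylate-binding proteins, were lower than in non-transgenic lung in all 3 transgenic tissues. Gbp3 measured 7.56, 7.58, 7.55 and 7.54 in adenocarcinomas and 8.11, 7.83, 7.29 and 8.16 in dysplasias. In unaltered tissue Gbp3 measured 8.52, 8.30, 8.53 and 8.52, against 9.14, 9.12, 9.09, 9.24 and 9.11 in non-transgenic lung. Dysplasia replicate 3 lay below all adenocarcinomas and the other dysplasias above them. The differences from non-transgenic lung were -1.58 ± 0.14 in adenocarcinoma, which is 0.333 times the level, -1.29 ± 0.14 in dysplasia and -0.67 ± 0.14 in unaltered tissue (limma adjusted p = 1.5e-07, 7.64e-06 and 0.00538).

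Gbp2 measured 8.39, 8.38, 8.37 and 8.28 in adenocarcinomas and 8.50, 8.19, 8.06 and 8.57 in dysplasias. In unaltered tissue Gbp2 measured 8.80, 8.72, 9.08 and 9.04, against 9.22, 9.52, 9.38, 9.76 and 9.77 in non-transgenic lung. The adenocarcinomas lay inside the dysplasia range, and unaltered tissue lay between dysplasia and non-transgenic lung with no overlap. Its differences from non-transgenic lung were -1.18 ± 0.13, -1.20 ± 0.13 and -0.62 ± 0.13 for adenocarcinoma, dysplasia and unaltered tissue (limma adjusted p = 3.52e-06, 1.31e-05 and 0.00738). Irgm1, a regulator of the immunity-related GTPases, was lower in dysplasia and unaltered tissue, at -0.46 ± 0.08 in each, and had a value of -0.20 ± 0.08 in adenocarcinoma (limma adjusted p = 0.0968).

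Genes for class I antigen processing differed mainly between non-transgenic lung and the 3 transgenic tissues. Of 7 measured, 3 were lower in adenocarcinoma (Psmb9, Psmb10 and Tap2), 5 in dysplasia (these with Tap1 and B2m) and 4 in unaltered tissue (these 3 with Tap1). Psmb9, an immunoproteasome subunit, measured 8.77, 8.97, 8.99 and 8.93 in adenocarcinomas and 8.63, 8.76, 8.76 and 8.85 in dysplasias. In unaltered tissue Psmb9 measured 8.78, 8.73, 8.58 and 8.91, against 9.19, 9.25, 9.35, 10.08 and 9.97 in non-transgenic lung. All 12 transgenic arrays lay below all non-transgenic ones. The differences from non-transgenic lung were -0.65 ± 0.16 in adenocarcinoma, -0.81 ± 0.16 in dysplasia and -0.82 ± 0.16 in unaltered tissue (limma adjusted p = 0.00529, 0.00189 and 0.00502).

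Tap1, a subunit of the pump that carries peptides into the endoplasmic reticulum, starts next to Psmb9 from the shared stretch printed above. It measured 8.78, 8.90, 8.82 and 8.82 in adenocarcinomas and 8.88, 8.58, 8.34 and 8.81 in dysplasias. In unaltered tissue Tap1 measured 8.59, 8.49, 8.21 and 8.61, against 8.88, 9.05, 9.06, 9.65 and 9.34 in non-transgenic lung. Non-transgenic replicates 4 and 5 were highest for both genes. Tap1 differed from non-transgenic lung by -0.72 ± 0.14 in unaltered tissue (limma adjusted p = 0.00472) and -0.54 ± 0.14 in dysplasia (limma adjusted p = 0.0124, and 0.0505 without dysplasia replicate 3). In adenocarcinoma its value was -0.36 ± 0.14 (limma adjusted p = 0.0646).

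Without non-transgenic replicates 4 and 5, unaltered tissue minus non-transgenic lung was -0.51 for Psmb9 and -0.52 for Tap1. Without replicates 1 to 3 the same differences were -1.27 and -1.02. Both genes passed in either case (limma adjusted p = 0.00329 and 0.0138 without replicates 4 and 5). In adenocarcinoma Psmb9 differed by -0.35 without replicates 4 and 5 and by -1.11 without replicates 1 to 3, and in dysplasia by -0.51 and -1.27. It passed each time. Tap1 in dysplasia differed by -0.34 without replicates 4 and 5, where it did not pass (limma adjusted p = 0.0532), and by -0.84 without replicates 1 to 3. Tap1 in adenocarcinoma, at -0.16 and -0.66, passed only without replicates 1 to 3 (limma adjusted p = 0.0044).

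Other members also had smaller differences without replicates 4 and 5 than without replicates 1 to 3. Psmb10 in dysplasia was -0.29 without replicates 4 and 5 and -0.69 without replicates 1 to 3, and in unaltered tissue -0.22, which did not pass (limma adjusted p = 0.117), and -0.62. B2m in dysplasia was -0.26 and -0.59, and Irf9 in dysplasia -0.26 and -0.63. Parp9 passed in dysplasia and unaltered tissue without replicates 1 to 3, at -0.49 in each, and not without replicates 4 and 5, at -0.22 in each (limma adjusted p = 0.12 and 0.127).

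Calls lost without replicates 4 and 5 were also those of Parp12 in dysplasia and of Ifih1, Zbp1, Cmpk2 and Parp12 in unaltered tissue (limma adjusted p = 0.0532 to 0.146). Calls lost without replicates 1 to 3, which leaves 2 non-transgenic arrays, were those of Dhx58 in adenocarcinoma, of Ifit1, Rsad2, Samhd1, Ifih1 and Parp12 in dysplasia and of Stat2, Ifih1, Dhx58 and Dtx3l in unaltered tissue (limma adjusted p = 0.0548 to 0.196). Over all members, 29 passed in adenocarcinoma in both settings, 27 and 25 in dysplasia, and 18 and 24 in unaltered tissue. The calls of all transcript clusters moved as well. Without replicates 4 and 5 they were 8218, 5193 and 3492 in adenocarcinoma, dysplasia and unaltered tissue. Without replicates 1 to 3 they were 6018, 3957 and 4195.

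Psmb8, the third interferon-induced immunoproteasome subunit, did not follow Psmb9 and Psmb10. Its values against non-transgenic lung were 0.10 ± 0.07 in adenocarcinoma, 0.10 ± 0.07 in dysplasia and 0.00 ± 0.07 in unaltered tissue. Tapbp, which holds class I molecules at the pump, had values of -0.17 to -0.10 and passed in none of the 3. B2m, the light chain of class I molecules, was lower in dysplasia at -0.39 ± 0.09 (limma adjusted p = 0.00823) and had values of -0.20 ± 0.09 in adenocarcinoma and -0.25 ± 0.09 in unaltered tissue.

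Among the 6 measured regulators, 5 were lower in adenocarcinoma, 4 in dysplasia and 4 in unaltered tissue than in non-transgenic lung. Irf7, the factor that amplifies type I interferon production, measured 7.11, 7.01, 7.30 and 7.11 in adenocarcinomas and 7.23, 7.20, 7.12 and 7.29 in dysplasias. In unaltered tissue Irf7 measured 7.21, 7.16, 7.10 and 7.19, against 7.43, 7.74, 7.60, 7.89 and 7.64 in non-transgenic lung. The 3 transgenic tissues overlapped each other, and none overlapped non-transgenic lung. Its differences were -0.53 ± 0.08, -0.45 ± 0.08 and -0.50 ± 0.08 for adenocarcinoma, dysplasia and unaltered tissue (limma adjusted p = 0.00012, 0.00108 and 0.00223). Irf9, the DNA-binding part of the type I complex, gave -0.45 ± 0.09, -0.41 ± 0.09 and -0.46 ± 0.09, and passed in all 3 (limma adjusted p = 0.00121, 0.00488 and 0.0052).

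Stat2, the partner of Irf9, and Irf1, the factor that interferon gamma induces, had lower group means in dysplasia than in unaltered tissue and in adenocarcinoma than in dysplasia. Stat2 differed from non-transgenic lung by -0.51 ± 0.06 in adenocarcinoma and -0.35 ± 0.06 in dysplasia (limma adjusted p = 3.41e-06 and 0.000409). In unaltered tissue Stat2 differed by -0.19 ± 0.06 (limma adjusted p = 0.0341, and up to 0.102 without unaltered replicate 1 or 2 or without non-transgenic replicate 2, 3 or 4). Irf1 measured 9.21, 9.11, 9.18 and 9.11 in adenocarcinomas and 9.49, 9.36, 9.14 and 9.52 in dysplasias. In unaltered tissue Irf1 measured 9.55, 9.55, 9.67 and 9.91, against 9.68, 10.06, 9.94, 9.94 and 9.74 in non-transgenic lung. Dysplasia lay below unaltered tissue without overlap, and unaltered tissue overlapped non-transgenic lung. The differences from non-transgenic lung were -0.72 ± 0.10 in adenocarcinoma and -0.49 ± 0.10 in dysplasia (limma adjusted p = 3.28e-05 and 0.00222), and the value in unaltered tissue was -0.20 ± 0.10 (limma adjusted p = 0.2).

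Irf8, a factor of macrophages, dendritic cells and B cells, had a higher group mean in dysplasia than in unaltered tissue. It measured 7.79, 7.92, 7.92 and 7.94 in adenocarcinomas and 8.25, 8.25, 8.34 and 8.35 in dysplasias. In unaltered tissue Irf8 measured 8.16, 8.0, 8.06 and 8.17, against 8.22, 8.34, 8.41, 8.77 and 8.40 in non-transgenic lung. The dysplasias lay within the non-transgenic range, above unaltered tissue. Irf8 differed from non-transgenic lung by -0.53 ± 0.09 in adenocarcinoma (limma adjusted p = 0.000222) and -0.33 ± 0.09 in unaltered tissue (limma adjusted p = 0.0262, and up to 0.0803 without unaltered replicate 2 or 3). In dysplasia the value was -0.13 ± 0.09 (limma adjusted p = 0.422). Of 8 macrophage markers, 5 were higher and 2 lower in adenocarcinoma, 2 and 4 in dysplasia, and 2 and 1 in unaltered tissue than in non-transgenic lung. Of 6 dendritic cell markers the counts were 0 and 3, 1 and 1, and 0 and 2. Their part in the values of Irf8 was not tested. Socs1, the feedback inhibitor of Janus kinases, passed in no comparison, with values of -0.06 to 0.11 in all 6.

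Of the 5 nucleic acid sensors, Ifih1, Dhx58 and Zbp1 were lower than in non-transgenic lung in each transgenic tissue. Zbp1, a sensor of left-handed nucleic acid that can trigger cell death, measured 6.99, 7.05, 7.27 and 6.94 in adenocarcinomas and 6.86, 6.61, 6.83 and 6.80 in dysplasias. In unaltered tissue Zbp1 measured 7.10, 6.79, 7.02 and 7.13, against 7.06, 7.60, 7.63, 7.77 and 7.40 in non-transgenic lung. Non-transgenic replicate 1 lay within the adenocarcinoma and unaltered ranges, and all dysplasias lay below the adenocarcinomas. Its differences were -0.43 ± 0.12, -0.72 ± 0.12 and -0.48 ± 0.12 for adenocarcinoma, dysplasia and unaltered tissue (limma adjusted p = 0.014, 0.000595 and 0.0185, the last 0.0661 without unaltered replicate 2).

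Ifih1, the sensor of long double-stranded RNA, differed by -0.37 ± 0.07, -0.25 ± 0.07 and -0.21 ± 0.07, and Dhx58, its regulator, by -0.27 ± 0.09, -0.40 ± 0.09 and -0.29 ± 0.09 in adenocarcinoma, dysplasia and unaltered tissue. For Dhx58 in adenocarcinoma the limma adjusted p of 0.0291 became up to 0.0722 without non-transgenic replicate 3 or 4 or without adenocarcinoma replicate 2, 3 or 4. In unaltered tissue the calls of both genes were lost without most single arrays, with limma adjusted p up to 0.105 for Ifih1 (7 of 9 arrays) and 0.0929 for Dhx58 (6 of 9 arrays). Ddx58, the sensor RIG-I, had values of -0.23 in adenocarcinoma, -0.02 in dysplasia and 0.17 in unaltered tissue, and Trim25, which activates it, -0.11, -0.10 and -0.12. None of these 6 passed.

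The 4 members of the PARP group modify proteins with ADP-ribose or, as Dtx3l, with ubiquitin. Parp14 measured 9.79, 9.80, 9.85 and 9.83 in adenocarcinomas and 10.06, 9.89, 9.89 and 10.01 in dysplasias. In unaltered tissue Parp14 measured 10.14, 10.17, 10.38 and 10.19, against 10.56, 10.60, 10.61, 10.60 and 10.46 in non-transgenic lung. The 4 groups did not overlap. It differed from non-transgenic lung by -0.75 ± 0.07, -0.61 ± 0.07 and -0.35 ± 0.07 for adenocarcinoma, dysplasia and unaltered tissue (limma adjusted p = 2.15e-07, 1.12e-05 and 0.00407). Parp12 and Dtx3l were lower in all 3 as well, at -0.39 to -0.25, and Parp9, the partner of Dtx3l, in dysplasia and unaltered tissue (-0.33 ± 0.10 in each), with -0.25 ± 0.10 in adenocarcinoma (limma adjusted p = 0.0645).

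Set against unaltered lung of the same mouse line, adenocarcinoma had 16 members lower and 1 higher, where 10.1% of all transcript clusters were lower and 16.8% higher. Antiviral effectors made up 10 of the 16, and none of the 7 class I genes passed. Tap1, at 0.36 ± 0.15, lay above unaltered tissue on all adenocarcinoma arrays but did not pass (limma adjusted p = 0.0943). Ifit1 differed by -1.06 ± 0.24, Ifit2 by -0.94 ± 0.10, Gbp3 by -0.91 ± 0.14, Rsad2 by -0.89 ± 0.18 and Samhd1 by -0.74 ± 0.08 (limma adjusted p = 0.00296, 1.88e-06, 0.000134, 0.00131 and 5.19e-06). Oasl2, Rtp4 and Cmpk2 followed at -0.65 ± 0.10, -0.63 ± 0.10 and -0.60 ± 0.12 (limma adjusted p = 0.00011, 0.000123 and 0.00117). For each of these 8 genes the 4 adenocarcinoma arrays lay below the 4 unaltered ones, as they did in 17 members in all, with 2 members above, against backgrounds of 11.3% and 19.3%. Gbp2 and Bst2 differed by -0.55 ± 0.14 and -0.55 ± 0.13 (limma adjusted p = 0.00686 and 0.0052).

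Among regulators, Irf1 and Stat2 were lower in adenocarcinoma than in unaltered tissue, at -0.52 ± 0.11 and -0.31 ± 0.06, while the values of Irf7 and Irf9 were -0.03 ± 0.09 and 0.01 ± 0.10. Ddx58 was the sensor that passed, at -0.40 ± 0.10 (limma adjusted p = 0.00472). Irgm1 was the member that rose, by 0.27 ± 0.09 (limma adjusted p = 0.0376), with p up to 0.12 without unaltered replicate 1 or 2 or without any 1 adenocarcinoma array. Markers of other cells moved with these differences. Lower were all 10 endothelial markers, 3 of 4 neutrophil markers (median -1.60), 3 of 5 B cell markers (median -0.73) and 4 of 12 T and NK cell markers, and 7 of 8 alveolar type II markers were higher. Of 8 macrophage markers 3 were higher and 2 lower, and of 6 dendritic cell markers 0 and 2. Of 6 fibroblast markers 1 was higher and 2 lower, and of 5 alveolar type I markers 1 and 3. Their part was not tested. With age as a covariate 2 of the 17 members passed, Ifit2 and Samhd1, while all calls fell to 1483 transcript clusters, against 6241.

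The step between the lesions was smaller. In adenocarcinoma 7 members were lower than in dysplasia and 0 higher, against backgrounds of 7.48% and 4.48%, and 12 members had an unadjusted p under 0.05 in limma, against 24.1% of all transcript clusters. The 7 were Ifit2 (-0.62 ± 0.10), Rsad2 (-0.61 ± 0.18), Samhd1 (-0.54 ± 0.08), Cmpk2 (-0.46 ± 0.12), Irf8 (-0.41 ± 0.10), Rtp4 (-0.40 ± 0.10) and Oasl2 (-0.32 ± 0.10), of which 6 are antiviral effectors. For all of these but Cmpk2 the adenocarcinoma arrays lay below the dysplasia arrays. That held for 10 members in all, with 3 above, against backgrounds of 11.8% and 9.34%. Ifit1, with a value of -0.75 ± 0.24, did not pass (limma adjusted p = 0.0527).

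Ifit2, Irf8, Rtp4 and Samhd1, 4 of the 7, passed whichever single array was left out (limma adjusted p = 0.000394, 0.0096, 0.0143 and 0.000397 with all arrays). Oasl2 lost its call without any single array but dysplasia replicate 3 (limma adjusted p up to 0.115). Rsad2 lost it without dysplasia replicate 1 or 4 or any 1 adenocarcinoma array (up to 0.138), and Cmpk2 without dysplasia replicate 1 or 4 or adenocarcinoma replicate 4 (up to 0.0736). Without dysplasia replicate 1, dysplasia replicate 4 or adenocarcinoma replicate 4, 4 members passed. All 10 endothelial markers were lower in adenocarcinoma than in dysplasia, with a median of -1.30, as were 3 of 4 neutrophil markers (median -0.92) and 4 of 12 T and NK cell markers. Of 8 macrophage markers 3 were higher and 1 lower, and of 6 fibroblast markers 1 and 2. For 5 B cell, 6 dendritic cell and 5 alveolar type I markers 0 were higher and 1, 2 and 2 lower. Of 8 alveolar type II markers 2 were higher. Their part was not tested. With age as a covariate 0 members passed in limma, 4 of them at an unadjusted p under 0.05, and all calls fell to 352 transcript clusters, against 2780.

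Values of the GTPases and class I genes in adenocarcinoma minus dysplasia were 0.02 ± 0.14 for Gbp2, -0.29 ± 0.14 for Gbp3, 0.27 ± 0.09 for Irgm1, 0.16 ± 0.17 for Psmb9 and 0.18 ± 0.15 for Tap1. None passed.

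Dysplasia and unaltered lung came from the same 3 animals and 1 pair of animals, called animals 1 to 4 here. In this comparison 7 members were lower in dysplasia and 1 higher, where 5.32% of all transcript clusters were lower and 15.1% higher. At an unadjusted p under 0.05 in limma, 14 of the 39 members differed in either direction, against 33.04% of all transcript clusters. The set as a whole thus stood close to the background by this count. Gbp3 and Gbp2 led, at -0.62 ± 0.12 and -0.58 ± 0.12 (limma adjusted p = 0.00248 and 0.00356). In the 4 animals dysplasia minus unaltered tissue was -0.42, -0.47, -1.24 and -0.36 for Gbp3 and -0.30, -0.53, -1.02 and -0.46 for Gbp2. Animal 3 stood out in both genes.

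Bst2 (-0.38 ± 0.12), Oasl2 (-0.32 ± 0.09), Ifit2 (-0.31 ± 0.08), Irf1 (-0.29 ± 0.09) and Parp14 (-0.26 ± 0.06) were the other members that fell, and each was lower in all 4 animals. Irf1 differed by -0.07, -0.19, -0.53 and -0.39 and Oasl2 by -0.32, -0.19, -0.49 and -0.29 in animals 1 to 4. Over the set, 13 of 39 members (33.3%) were lower in all 4 animals, among them Stat2, Samhd1, Rtp4 and Oas2, which did not pass, against 13.0% of all transcript clusters. The members higher in all 4 animals were 5 (12.8%), Irf7, Irf8, Mx1, Psmb8 and Tap1, against 26.1% of all transcript clusters. All dysplasia arrays lay below all unaltered arrays in 9 members and above in 1, against backgrounds of 5.62% and 15.4%.

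Mx1, an antiviral GTPase that many inbred mouse strains carry in defective form, measured 5.05, 4.66, 4.48 and 4.46 in dysplasias and 4.51, 3.92, 4.24 and 4.06 in unaltered tissue. It had 4.53, 4.17, 4.49 and 4.44 in adenocarcinomas, against 4.94, 4.57, 4.49, 4.83 and 4.03 in non-transgenic lung. Dysplasia and unaltered arrays overlapped, and all values were low on the array. Mx1 was 0.48 ± 0.16 higher in dysplasia than in unaltered tissue (limma adjusted p = 0.0444). That call was lost under quantile normalization and cyclic loess and without dysplasia replicate 1 or 2 or unaltered replicate 2, 3 or 4 (limma adjusted p up to 0.162).

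The calls between dysplasia and unaltered tissue depended on which arrays were fitted and on how the animal entered the fit. A fit of the 8 arrays alone, with arrays of an animal linked by their correlation, left 4 members and 3688 calls of all transcript clusters. With the animal as a fixed block over the same 8 arrays 0 members passed in limma. All calls there fell to 1881 transcript clusters, against 4740 in the fit of all arrays. In that fixed-block fit 14 members had an unadjusted p under 0.05. This count cannot be read as a result, since no share of all transcript clusters is given to set beside it. The differences were the same, with limma adjusted p = 0.0956 for Gbp3 and 0.0706 for Gbp2. Under quantile normalization 14 members were lower and 0 higher, and the calls of all transcript clusters then split into 2218 higher and 2354 lower, against 3504 and 1236 in the fit above. Without single arrays 4 to 9 members passed. Gbp2, Gbp3 and Parp14 passed whichever was left out, and 4 members passed without dysplasia replicate 2 or 3 and 5 without unaltered replicate 2, 3 or 4. Irf1 lost its call without dysplasia replicate 2 or 3 or unaltered replicate 3 or 4 (up to 0.125), Ifit2 without dysplasia replicate 2 or 3 or unaltered replicate 2 (up to 0.0648), Oasl2 without dysplasia replicate 3 (0.0563) and Bst2 without all but dysplasia replicate 4 and unaltered replicate 1 (up to 0.107).

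Of 10 endothelial markers 8 were lower in dysplasia than in unaltered tissue, and of 4 neutrophil markers 3 (median -0.69), while 7 of 8 alveolar type II markers were higher. Neither the 12 T and NK cell markers nor the 5 B cell markers held a gene that passed in limma. Of 8 macrophage markers 0 were higher and 1 lower, of 6 dendritic cell markers 2 and 0. Of 6 fibroblast markers 0 were higher and 2 lower, and of 5 alveolar type I markers 1 and 2. Dysplasia replicate 3 had the lowest endothelial level of the 4 dysplasias, at 9.83 against 10.30 to 10.65, and the lowest Gbp2, Gbp3, Ifit2, Rsad2, Irf1 and Tap1 as well. Other members went the other way. The same array had the highest Ifit1, Bst2, Rtp4, Oas2, Ifi35, Oasl1, B2m and Ddx58 of the 4 dysplasias. The part of these markers in the results was not tested. Class I genes did not pass here, with values of -0.14 to 0.18.

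**Figure D4:**
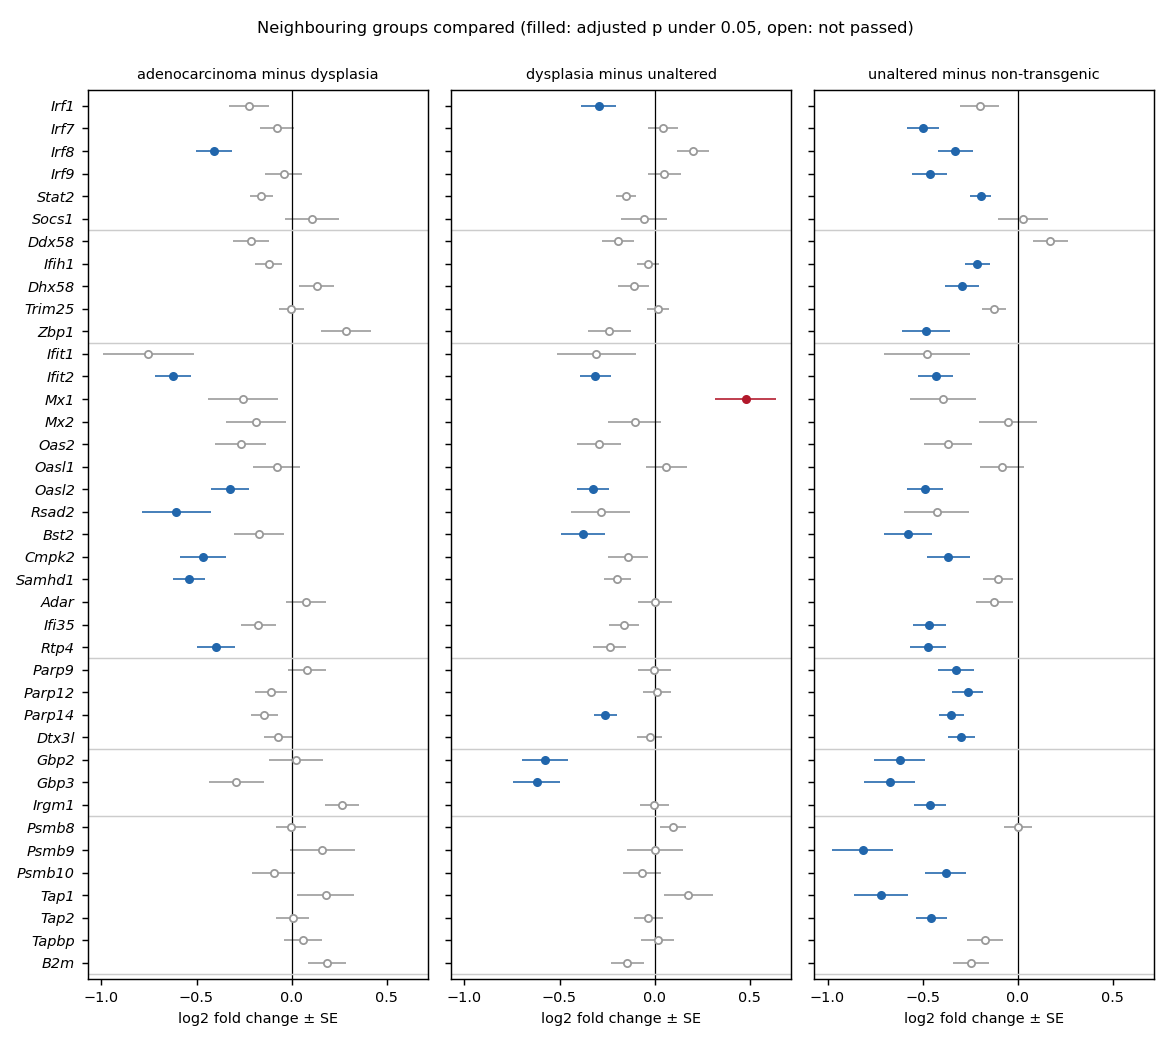
Log2 fold change ± SE of each of the 39 members in adenocarcinoma minus dysplasia, dysplasia minus unaltered tissue and unaltered tissue minus non-transgenic lung (filled points passed, open points did not). Psmb9, Psmb10, Tap1, Tap2, Irf7 and Irf9 are filled in unaltered tissue minus non-transgenic lung and open in the other panels, Ifit2 and Oasl2 are filled in all 3, and the filled point to the right is Mx1.

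Other genes of the pathway were read from 3 lists. Of 11 ligands and receptors, 2 were higher and 2 lower in adenocarcinoma than in non-transgenic lung, 1 and 2 in dysplasia, and 0 and 4 in unaltered tissue. Of all transcript clusters 13.6% were higher and 16.4% lower in adenocarcinoma, 7.62% and 9.86% in dysplasia, and 2.47% and 11.8% in unaltered tissue. The adenocarcinoma counts of this short list were close to those shares. Ifnar2 and Ifngr1, chains of the type I and the gamma receptor, were lower in each transgenic tissue. Ifngr1 measured 9.78, 9.67, 9.73 and 9.72 in adenocarcinomas and 10.15, 10.05, 9.84 and 10.11 in dysplasias. In unaltered tissue Ifngr1 measured 10.24, 10.11, 10.15 and 10.23, against 10.56, 10.33, 10.38, 10.56 and 10.66 in non-transgenic lung. The adenocarcinomas lay below every other array, and non-transgenic lung lay above every other array. Its differences from non-transgenic lung were -0.78 ± 0.08, -0.46 ± 0.08 and -0.32 ± 0.08 for adenocarcinoma, dysplasia and unaltered tissue (limma adjusted p = 9.62e-07, 0.000556 and 0.0153, the last 0.0517 without unaltered replicate 2). Those of Ifnar2 were -0.37 ± 0.05, -0.37 ± 0.05 and -0.29 ± 0.05.

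Il10rb, the receptor chain that interferon lambda shares with other cytokines, went the other way in the lesions. It measured 11.55, 11.51, 11.57 and 11.50 in adenocarcinomas and 11.19, 11.32, 11.40 and 11.19 in dysplasias. In unaltered tissue Il10rb measured 10.64, 10.68, 10.66 and 10.76, against 10.84, 10.89, 10.90, 11.01 and 11.16 in non-transgenic lung. The 4 groups did not overlap, and unaltered tissue was lowest. Il10rb was higher than in non-transgenic lung by 0.58 ± 0.07 in adenocarcinoma and 0.31 ± 0.07 in dysplasia (limma adjusted p = 1.18e-05 and 0.00583). In unaltered tissue it was lower at -0.28 ± 0.07 (limma adjusted p = 0.0212, and up to 0.0556 without unaltered replicate 2 or 3). In dysplasia it exceeded unaltered tissue by 0.59 ± 0.07 (limma adjusted p = 2.8e-05).

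Of the interferon genes measured, Ifnb1 was higher in adenocarcinoma than in non-transgenic lung by 0.69 ± 0.15 (limma adjusted p = 0.00195). Its values were 5.50, 5.69, 5.78 and 5.41 in adenocarcinomas, against 4.79, 4.70, 4.63, 5.25 and 5.15 in non-transgenic lung. The 2 groups did not overlap, but all values lay near the lower quartile of the arrays. Without non-transgenic replicates 1 to 3 Ifnb1 differed by 0.39 and did not pass (limma adjusted p = 0.11). Ifng, Ifna4, Ifne and Ifnk passed in none of the 6 comparisons.

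Of 20 signalling and sensing genes, 5 were higher and 6 lower in adenocarcinoma than in non-transgenic lung, 5 and 2 in dysplasia, and 1 and 3 in unaltered tissue. The shares of all transcript clusters are those given with the ligands and receptors. The rise of Tmem173, which encodes the DNA signalling adaptor STING, was 1.14 ± 0.16 in adenocarcinoma and 0.77 ± 0.16 in dysplasia (limma adjusted p = 2.93e-05 and 0.00239), with 0.05 ± 0.16 in unaltered tissue. Tmem173 measured 9.69, 9.65, 9.70 and 9.68 in adenocarcinomas and 9.07, 9.37, 9.61 and 9.17 in dysplasias. In unaltered tissue Tmem173 measured 8.60, 8.45, 8.76 and 8.55, against 8.22, 8.25, 8.33, 8.98 and 8.91 in non-transgenic lung. Both lesions lay above all unaltered and non-transgenic arrays, and non-transgenic replicates 4 and 5 lay above replicates 1 to 3. Without replicates 4 and 5 Tmem173 differed by 1.41, 1.04 and 0.32 in adenocarcinoma, dysplasia and unaltered tissue. Without replicates 1 to 3 it differed by 0.73, 0.36 and -0.36, with the dysplasia value not passed (limma adjusted p = 0.0746).

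Socs3, a feedback inhibitor that interleukin 6 family cytokines induce, was higher than in non-transgenic lung by 1.15 ± 0.11 in adenocarcinoma, 0.80 ± 0.11 in dysplasia and 0.70 ± 0.11 in unaltered tissue (limma adjusted p = 8.34e-07, 0.000128 and 0.00195). Myd88, the adaptor of Toll-like receptors, rose by 0.60 ± 0.08 and 0.40 ± 0.08 in adenocarcinoma and dysplasia. Among genes that fell in adenocarcinoma were Tlr7, the endosomal sensor of single-stranded RNA, at -0.77 ± 0.20, and Irf2 and Jak1, at -0.58 ± 0.06 and -0.54 ± 0.07 (limma adjusted p = 0.00674, 2.61e-06 and 2.52e-05).

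Of 23 further interferon-induced genes, 3 were higher and 14 lower in adenocarcinoma than in non-transgenic lung, 1 and 12 in dysplasia, and 0 and 12 in unaltered tissue. Here too the shares of all transcript clusters are those given with the ligands and receptors. Slfn5, a schlafen family gene, measured 7.85, 7.74, 7.86 and 7.70 in adenocarcinomas and 9.26, 8.94, 8.71 and 9.27 in dysplasias. In unaltered tissue Slfn5 measured 9.67, 9.53, 9.67 and 9.70, against 10.27, 10.27, 10.23, 10.29 and 10.20 in non-transgenic lung. No 2 groups overlapped. The differences from non-transgenic lung were -2.47 ± 0.10, -1.21 ± 0.10 and -0.61 ± 0.10 for adenocarcinoma, dysplasia and unaltered tissue (limma adjusted p = 7.98e-11, 7.36e-07 and 0.00172). Gbp7, Gvin1 and Ifitm3, which blocks virus entry, were lower in adenocarcinoma at -1.81 ± 0.13, -1.59 ± 0.14 and -1.58 ± 0.09 (limma adjusted p = 1.51e-08, 1.69e-07 and 2.71e-09).

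Cxcl9 and Cxcl10, chemokines that draw T cells and that interferon gamma induces, were 2 of the 3 further genes that rose in adenocarcinoma. Cxcl9 measured 6.53, 7.05, 6.79 and 6.93 in adenocarcinomas and 5.69, 6.09, 5.87 and 5.96 in dysplasias. In unaltered tissue Cxcl9 measured 5.27, 5.18, 5.74 and 5.53, against 5.07, 4.95, 4.98, 5.61 and 4.97 in non-transgenic lung. The adenocarcinomas lay above every other array. Cxcl9 exceeded non-transgenic lung by 1.71 ± 0.16, or 3.27 times, in adenocarcinoma and by 0.79 ± 0.16 in dysplasia (limma adjusted p = 3.25e-07 and 0.0019), with 0.31 ± 0.16 in unaltered tissue. Cxcl10 was higher in adenocarcinoma by 0.69 ± 0.11 (limma adjusted p = 0.000106) and had 0.30 ± 0.11 in dysplasia and -0.21 ± 0.11 in unaltered tissue. Lgals3bp, a secreted galectin-binding protein, was the other gene that rose in adenocarcinoma, by 0.41 ± 0.11 (limma adjusted p = 0.00675).

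Further calls of these pathway genes depended on the non-transgenic arrays used. Without replicates 4 and 5 the falls of Ifngr1 and Il10rb in unaltered tissue did not pass (limma adjusted p = 0.0596 and 0.0665). Without replicates 1 to 3 the same held for Il10rb and Cxcl9 in dysplasia (limma adjusted p = 0.152 and 0.0661) and for Lgals3bp in adenocarcinoma, at 0.18 (limma adjusted p = 0.255). Tlr7 in adenocarcinoma passed in both settings, at -0.44 without replicates 4 and 5 and -1.26 without replicates 1 to 3.

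**Figure D5:**
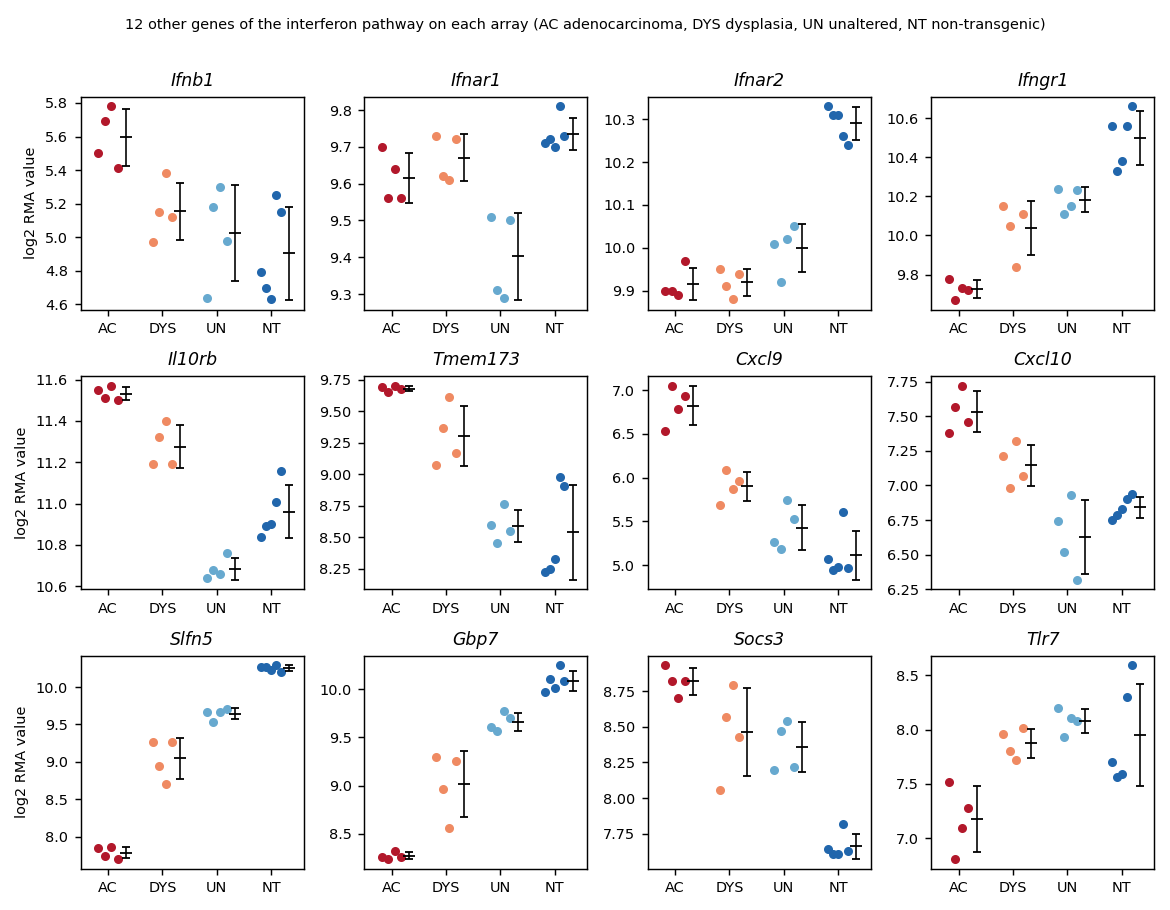
Log2 RMA values of 12 pathway genes outside the member set on each array by group (points, in order of replicate number), with the group mean and SD beside them and a separate y axis for each gene. Cxcl9, Cxcl10, Il10rb, Tmem173 and Socs3 are highest in adenocarcinoma, whereas Slfn5, Gbp7 and Ifngr1 are lowest there.

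Members with and without the ISRE letters in the printed window could be set side by side for 30 genes. In adenocarcinoma minus non-transgenic lung the 9 genes with a match had a median of -1.13 and a range of -1.58 to 0.08, with 6 of 9 lower, against a median of -0.45, a range of -1.37 to 0.10 and 14 of 21 lower for those without. The ranges overlapped over nearly their whole length. Ifit2, at -1.37, held no match, and Socs1, at 0.08 and not passed, held 2. In the other comparisons the shares lower with and without a match varied. They were 8 of 9 and 14 of 21 in dysplasia and 5 of 9 and 13 of 21 in unaltered tissue against non-transgenic lung. Against unaltered tissue they were 6 of 9 and 7 of 21 in adenocarcinoma and 3 of 9 and 3 of 21 in dysplasia. Adenocarcinoma against dysplasia had 1 of 9 and 5 of 21. A link between match and call was not tested.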

How the data were processed

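The authors computed log2 RMA values of core transcript clusters in Expression Console and deposited them for the 17 arrays, per the labels. Per the labels' protocols, ribosomal RNA was reduced and the RNA amplified before labelling, and per the submitters' processing notes GCOS was used, with its version not given. No genome build was given in the sources used here. The deposited log2 values ran from 1.13 to 14.3 and were used as they stand, with no filter. A single gene symbol was attached to 14939 of the 23238 transcript clusters, more than 1 to 989 and none to 7310.

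Groups came from the labels. Group means were fitted over all arrays and all transcript clusters with limma 3.58.1 in R 4.3.3, and arrays of one animal were linked by duplicateCorrelation (correlation 0.245). After eBayes, p-values were adjusted by Benjamini-Hochberg across the whole table, and 0.05 was the threshold. No sex term was used, since Y-linked genes went against the labelled sex on 4 arrays. The arrays came from 13 animals or pairs of animals, 4 of them with both dysplasia and unaltered tissue, so the p-values measure the spread between these samples. The pairing is that of the labels, which name the same animals. Deviations from the group means correlated at 0.21, 0.08, 0.15 and -0.01 between the 2 arrays of an animal. The fit was tested on simulated data.

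The members, lists and tests were chosen with earlier results of these data known. The up to 8 members with the largest log2 fold changes among those that passed in a comparison have their values given in every array. The regulators are described in the comparisons, and up to 4 genes that passed are named from each other list of the pathway. Promoters are those of RefSeq (GRCm38.p6).

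Alternatives were no block, a fixed animal block, sex or age as a covariate, fits of the 2 groups alone, a filter on low values, smaller sets of transcript clusters, quantile and cyclic loess normalization, eBayes with trend and robust options, array weights, and leaving out single arrays, arrays with 2 animals or non-transgenic arrays 4 and 5 or 1 to 3.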

Additional observations from a re-analysis of the deposited data

Results flagged for a closer look

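An array far from the others of its group was looked for in each member and group, and 9 of 156 such sets held one by Dixon's 95% critical value, where chance gives about 1 in 20. Irf8 was low on adenocarcinoma array 1, at 7.79, with the other adenocarcinomas at 7.92 to 7.94. Stat2 was high on dysplasia array 4, at 8.56 with the others at 8.50 to 8.51, and Dtx3l was low on dysplasia array 3, at 9.11 with the others at 9.26 to 9.29. Unaltered array 2 was low for 3 members. It had 8.54 for Ifih1 (others 8.60), 8.16 for Oasl2 (others 8.30 to 8.32) and 8.30 for Gbp3 (others 8.52 to 8.53). Unaltered array 3 was low for Tap2, at 7.94 against 8.17 to 8.20. Non-transgenic array 4 was high for Oasl1, at 7.10 with the others at 6.53 to 6.65, and for Samhd1, at 10.63 with the others at 10.46 to 10.51.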

How the results depend on the processing

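No call of a member reversed under any alternative. In adenocarcinoma against non-transgenic lung the count of members that passed stayed within 1.5 times of 26 (25 to 28 without single arrays), and in dysplasia against non-transgenic lung within 1.5 times of 29 (24 to 29). In all settings 23 and 17 of these members passed.

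In unaltered against non-transgenic lung 24 members passed, and Irf7 in every setting. The count was 1 with age as a covariate, 14 with the labelled sex, 15 in a fit of the 2 groups alone, 13 with quantile normalization, 14 with cyclic loess, 13 without the arrays of 2 animals, and 15 to 25 without single arrays. In the same order, up to the arrays of 2 animals, all calls were 180, 1912, 1425, 1793, 1955 and 1099 transcript clusters, against 3317. In adenocarcinoma against unaltered tissue 17 passed, 2 with age as a covariate and 16 to 17 without single arrays. In adenocarcinoma against dysplasia 7 passed. The count there was 0 with age, 14 with array weights, 3 without the arrays of 2 animals and 4 to 8 without single arrays. All calls with age, with array weights and without the arrays of 2 animals were 352, 5378 and 1583 transcript clusters, against 2780. In dysplasia against unaltered tissue 8 passed. The count was 5 with no block, 4 in a fit of the 2 groups alone, 14 with quantile normalization and 14 with cyclic loess, 2 without the arrays of 2 animals and 4 to 9 without single arrays. Up to the arrays of 2 animals, all calls were 3270, 3688, 4572, 4329 and 2437 transcript clusters, against 4740. Under a replicate block that fitted each animal as a fixed term, over the 8 arrays alone, 0 passed in limma. All calls there were 1881 transcript clusters. In the fixed-term fit 14 members had an unadjusted p under 0.05, which cannot be read as a result without the share of all transcript clusters, not given here. The causes of these shifts were not tested.

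Cyclic loess split all calls of adenocarcinoma against unaltered tissue into 3052 higher and 3140 lower, against 3903 and 2338 in the fit reported. Quantile normalization split those of adenocarcinoma against dysplasia into 1507 and 1555, against 1042 and 1738. The mean of several transcript clusters of a gene was not run, since each measured member has 1. The number of arrays limits what these comparisons can show.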
